A study of Homo sapiens with 28 samples.

Results

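The ATP-binding cassette (ABC) transporters were described here as the listed genes whose symbol is ABC, a subfamily letter from A to G and a number. The rule found 46 of 26475 listed genes. They comprise 12 members of subfamily A, 9 of B, 12 of C, 4 of D, 1 of E, 3 of F and 5 of G. RNA was measured in 28 polyA libraries of LNCaP cells, an androgen-responsive human prostate cancer line that makes its own *HOXB13*, a homeobox factor of the prostate. All cells carried a hairpin vector, and in the knockdown series 8 groups of 2 libraries held shHOXB13+shp300/CBP, shHOXB13+shp300, shHOXB13+shCBP, shHOXB13, shCtrl+shp300/CBP, shCtrl+shp300, shCtrl+shCBP or shCtrl. p300 and CBP are related histone acetyltransferases, encoded by *EP300* and *CREBBP*. In the CCS1477 series, 4 groups of 3 libraries held shHOXB13 or shCtrl cells given 250 nM CCS1477, an inhibitor of the p300/CBP bromodomain, or DMSO, its solvent, for 48 hours. *HOXB13*, *EP300* and *CREBBP* were each targeted with a single hairpin sequence in a single cell line, so an effect of the hairpin other than on its target cannot be told apart from the loss of that target. The replicates were biological duplicates or triplicates per the study's methods.

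ABC transporters are membrane proteins that bind and hydrolyse ATP to move a substrate across a membrane, mostly out of the cell or into an organelle. Subfamily A and part of G carry lipids and sterols, B holds mitochondrial, lysosomal and drug transporters, C holds pumps for organic anions, drug conjugates and cyclic nucleotides as well as the sulfonylurea receptors of potassium channels, and D acts on peroxisomes and lysosomes. Members of E and F have the ATP-binding domains but no membrane domain, and act on ribosomes. In the prostate the family is best known for *ABCC4*, an androgen-responsive pump abundant in luminal cells, and for drug efflux by *ABCB1*, *ABCC1* and *ABCG2*.

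The members whose RNA moved most, *ABCC11* and *ABCC12*, lie in tandem on the minus strand of chromosome 16. In GENCODE 44 on GRCh38, *ABCC11* spans chr16:48165773-48247568 and *ABCC12* spans chr16:48080882-48156018, with 9754 bases between them. RefSeq promoter windows (GRCh38.p14, 250 bases before to 50 after an annotated start) were held for 35 of the 46 members, and the table used had none for *ABCG1*. The 250 bases before the start of *ABCC11*, *ABCC12* and *ABCA12* are shown because the first pair rose together and *ABCA12* fell with the *HOXB13* hairpin. The windows are chr16:48247540-48247789 for *ABCC11*, chr16:48155994-48156243 for *ABCC12* and chr2:215138627-215138876 for *ABCA12*, all on the minus strand and written 5′ to 3′ in the direction of the gene. Capitals mark a match to a searched motif.
ABCC11: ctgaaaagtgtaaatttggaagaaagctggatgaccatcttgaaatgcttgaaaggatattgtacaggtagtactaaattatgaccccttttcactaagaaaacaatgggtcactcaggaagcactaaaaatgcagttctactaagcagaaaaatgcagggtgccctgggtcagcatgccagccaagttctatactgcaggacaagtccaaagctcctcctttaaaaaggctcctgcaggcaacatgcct
ABCC12: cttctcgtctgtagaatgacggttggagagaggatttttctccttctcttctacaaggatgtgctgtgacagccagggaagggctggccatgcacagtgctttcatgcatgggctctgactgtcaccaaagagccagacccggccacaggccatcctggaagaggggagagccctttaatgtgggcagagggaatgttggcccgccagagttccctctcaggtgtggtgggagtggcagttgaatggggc
ABCA12: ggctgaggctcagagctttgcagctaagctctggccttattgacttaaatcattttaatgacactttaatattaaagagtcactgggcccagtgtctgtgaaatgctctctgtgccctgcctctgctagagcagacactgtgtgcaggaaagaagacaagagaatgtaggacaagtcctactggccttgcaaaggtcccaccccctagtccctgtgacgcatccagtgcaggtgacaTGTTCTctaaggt
Searched on both strands of the 300-base windows were 2 forms of the *HOXB13* motif, CCAATAAA and CTCGTAAA, the androgen receptor half-site AGAACA, the forkhead motif TGTTTAC and the sterol regulatory element core TCACNCCAC. These letters occur in 0.9%, 0.1%, 14.8%, 3.4% and 1.1% of all 34943 promoter windows in the order given. A gene can have several windows, and the 35 members have 53, of which 0, 0, 10 (18.9%), 3 (5.7%) and 0 hold a match, on 8 members for the half-site and 3 for the forkhead motif. No match was found in any of the 3 windows each of *ABCC11* and *ABCC12*, and the *ABCA12* window shown holds 1 half-site, read on the opposite strand, that begins 13 bases before the annotated start. A match is a string of letters and not a measured site.

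The *HOXB13* hairpin lowered its target in every library. *HOXB13* averaged 11.3 ± 0.099 FPKM in shHOXB13 cells and 86.5 ± 1.58 FPKM in shCtrl cells (SD, n = 2 each; FPKM, fragments per kilobase of gene, scaled to all mapped reads), and 30.4 ± 1.95 FPKM in shHOXB13 DMSO cells against 142 ± 3.96 FPKM in shCtrl DMSO cells (SD, n = 3 each). *HOXB13* RNA fell further in shHOXB13+shp300/CBP cells, to 5.25 and 7.94 FPKM, against 11.2 and 11.4 FPKM in shHOXB13 cells (log2 −0.80, limma adjusted p = 0.0051), and its part in the shp300/CBP results given here was not tested. It was also lower in shCtrl cells with shp300/CBP (log2 −0.81) and with shCBP (log2 −0.87), both past the test. *EP300* fell with shp300 in both cell states (log2 −0.79 in shHOXB13 and −1.24 in shCtrl cells), and *CREBBP* fell with shCBP in shCtrl cells (log2 −0.95), while in shHOXB13 cells the shCBP difference missed the threshold (log2 −0.64, limma adjusted p = 0.064). In shHOXB13+shp300/CBP cells, *EP300* (log2 −0.41, limma adjusted p = 0.073) and *CREBBP* (log2 −0.27, limma adjusted p = 0.23) did not pass. *EP300* was also lower with shHOXB13 itself in both series (log2 −0.92 and −0.86), and rose with CCS1477 in shHOXB13 cells (log2 0.74), as *CREBBP* did (log2 1.16). Libraries held 7458934 to 16338530 mapped reads, and the share of them in genes was 52.66 to 68.84% in the knockdown libraries with shHOXB13 and 64.7 to 74.29% in those with shCtrl. All 9 luminal prostate markers were expressed, and their summed level was 1150 to 4350 FPKM over the knockdown libraries and 2240 to 7010 FPKM over the CCS1477 and DMSO libraries. Basal epithelial markers summed to at most 4.69 FPKM, endothelial markers to at most 2.89 FPKM and neuroendocrine markers to at most 5.39 FPKM. The sum of 4 immune markers was 9.51 to 40.7 FPKM in the knockdown libraries with shHOXB13, against 2.48 to 5.98 FPKM in those with shCtrl, and came almost wholly from CD68, a lysosomal protein, with PTPRC at most 0.015 FPKM and CD3E at 0 in these libraries. The sum of 4 fibroblast markers was 4.42 to 18.1 FPKM with shHOXB13, against 1.16 to 3.09 FPKM with shCtrl, mostly COL1A1 in the shHOXB13 libraries, with COL1A2 at 0 and DCN at most 0.0244 FPKM. The part of these differences in the results given here was not tested.

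Of the 46 members, 31 reached the filter in the knockdown series, 0.1 FPKM in at least 2 libraries, and 29 reached that of the CCS1477 series, 0.1 FPKM in at least 3. The remaining 13 reached it in neither: *ABCA6*, *ABCA8*, *ABCA9*, *ABCA10*, *ABCA13*, *ABCB1*, *ABCB11*, *ABCC3*, *ABCC9*, *ABCC13*, *ABCD2*, *ABCG5* and *ABCG8*. Over all 28 libraries these 13 held from 0 to 59 reads each, and none held more than 9 reads in a library. They include *ABCB1*, the multidrug pump P-glycoprotein, at 0 to 0.0634 FPKM, and *ABCC3*, an organic anion pump, at 0 to 0.0509 FPKM. *ABCC13*, annotated as a pseudogene, was listed at 0 in every library. The drug efflux pumps *ABCG2* and *ABCC2* reached at most 0.157 and 0.202 FPKM. At this depth a change in these genes was mostly not detectable, which does not show that they did not change.

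The abundant members were few, and in bulk RNA a lower level in each cell cannot be told apart from fewer cells that express the gene. In shCtrl cells 12 of 46 members exceeded 10 FPKM, and in shCtrl DMSO cells 14 did. *ABCC4* ranked first in shCtrl cells at 61.0 ± 0.933 FPKM and *ABCA2*, a sterol-related transporter of the endosome and lysosome, was second. In shHOXB13 cells *ABCA2* ranked first and *ABCC4* ninth. *ABCC4* held rank 3 in shHOXB13 DMSO cells, against rank 1 in shCtrl DMSO cells. *ABCC11* held rank 19 in shHOXB13 cells, against rank 26 in shCtrl cells, and rank 6 in shHOXB13 DMSO cells, against rank 25 in shCtrl DMSO cells.

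**Figure D1:**
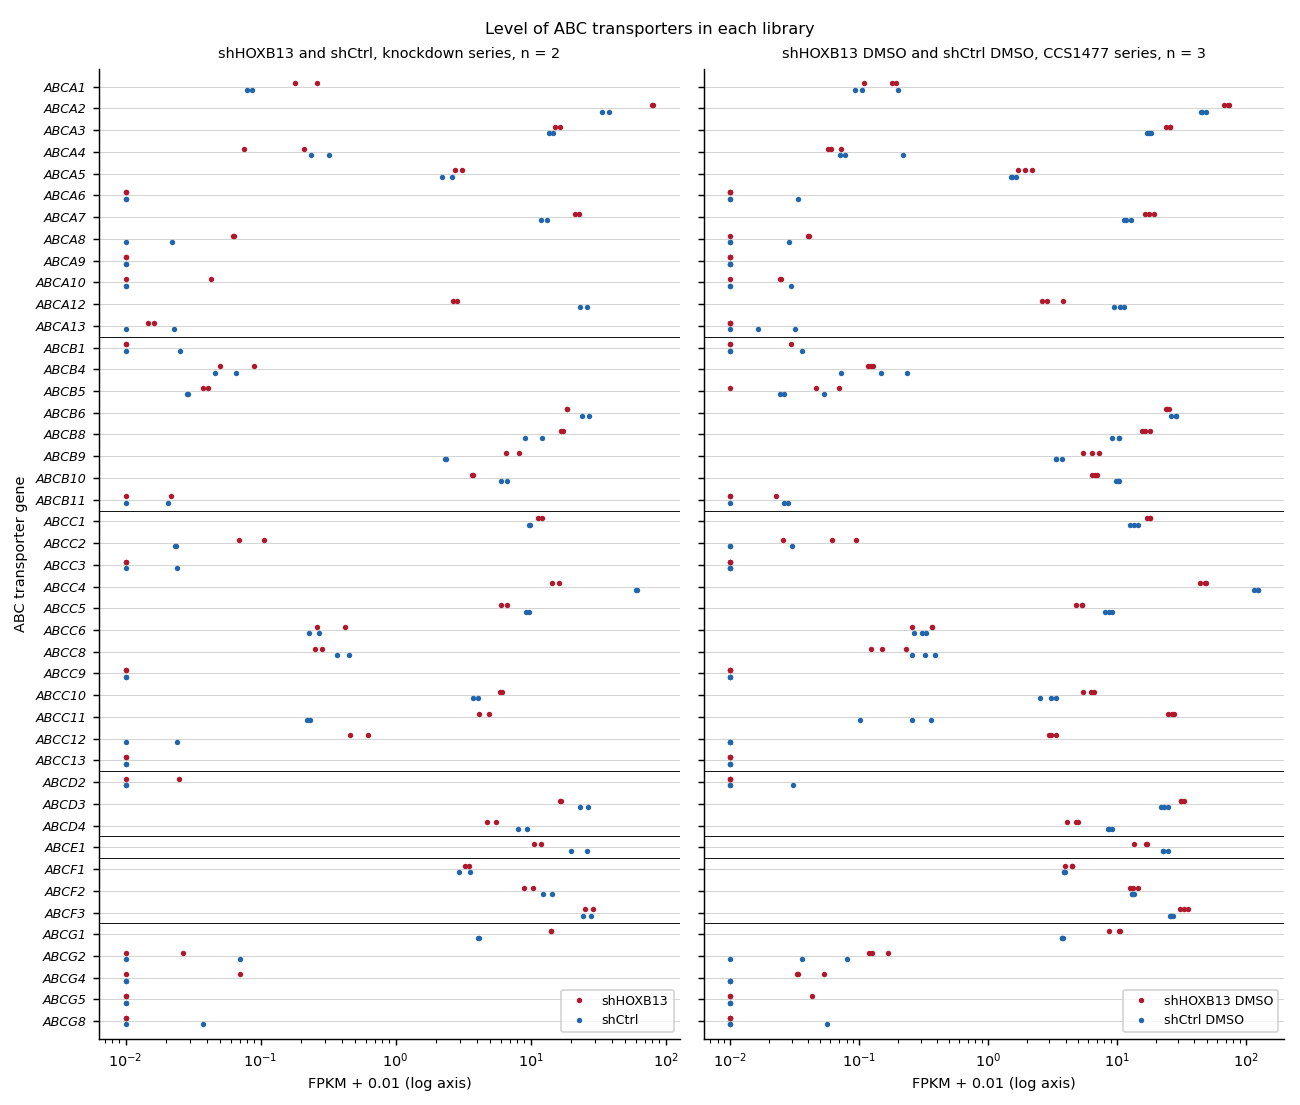
Each point is 1 library's FPKM on a log axis for the ABC transporters drawn, by subfamily, in shHOXB13 cells (red) and shCtrl cells (blue) of the knockdown series (left panel, n = 2 per group) and with DMSO in the CCS1477 series (right panel, n = 3 per group). *ABCC11* and *ABCC12* sit far to the right in red in both panels, while *ABCC4* and *ABCA12* sit to the left of their blue points.

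Across comparisons, a gene passed when its limma p-value, adjusted over all tested genes by Benjamini-Hochberg, was under 0.05 and its fold change on the scale of log2(FPKM + 0.1) was at least 1.5, and "rose" and "fell" are used only of such changes. A value after ± beside a log2 change is its standard error. In shHOXB13 against shCtrl cells 9 of 31 tested members rose, where 7.15% of all 17678 tested genes did, and 5 fell, where 26.8% of all genes did. In shHOXB13 DMSO against shCtrl DMSO cells 9 of 29 rose, against a background of 8.58% of 15907 genes, and 5 fell, against 30.6%. The median log2 change of the tested members was 0.16 and 0.29 in these comparisons, where that of all genes was −0.33 in each. That shift of the median gene depends on the scaling: with median-of-ratios scaling the members' split became 12 up and 3 down in the knockdown series and 14 up and 3 down with DMSO, and all genes split 2287 up to 2335 down and 2346 up to 3200 down. The groups of the 2 series come from different libraries, and of 27 members tested in both, 11 passed in both, 8 up and 3 down, each in the same direction. The share of all genes that passed in both series was not taken, so this overlap is not shown to be particular to the family.

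Second hairpins were then compared within shHOXB13 cells. With shHOXB13+shp300/CBP against shHOXB13, 3 of 31 rose (9.06% of all genes) and 11 fell (13.3% of all genes). With median-of-ratios scaling 3 rose and 8 fell, where all genes split 2429 up to 1703 down. The share of mapped reads in genes was 61.56 and 52.66% in shHOXB13+shp300/CBP libraries, against 68.84 and 66.32% in shHOXB13 libraries. The part of this difference in the counts was not tested. With shHOXB13+shp300 2 rose (3.15% of all genes) and 2 fell (3.09% of all genes). With shHOXB13+shCBP *ABCC8* alone rose (0.385% of all genes) and 0 fell in the limma fit (1.08% of all genes), where 9 were lower at an unadjusted p under 0.05. In limma-voom on reads recovered from the FPKM values 3 fell, as did 431 of all 17678 genes. Between the shHOXB13+shp300 and shHOXB13+shCBP groups 2 members were higher with shp300 (1.82% of all genes) and 0 lower (0.690% of all genes), with 3 lower at an unadjusted p under 0.05. In limma-voom 0 members were lower, where 126 of all genes were. The comparisons with shHOXB13 as reference share its 2 libraries, and those with shCtrl as reference share its 2. A fit of the compared groups alone had 2 libraries on each side and no spread borrowed from the other groups. It left 0 of all 17678 genes, and so 0 members, past the adjusted threshold in each of these 4 comparisons. At an unadjusted p under 0.05 it held 13, 13, 13 and 5 members, and the share of all genes at that level was not taken.

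In control cells, shCtrl+shp300/CBP against shCtrl raised 7 of 31 members (7.60% of all genes) and lowered 4 (7.89% of all genes). With shCtrl+shp300 0 rose (1.00% of all genes), 3 were higher at an unadjusted p under 0.05 and 0 rose in limma-voom (366 of all 17678 genes), while *ABCB6* fell (2.09% of all genes). With shCtrl+shCBP 6 rose (3.39% of all genes) and 2 fell (6.67% of all genes). The compared groups alone left 0 of all 17678 genes, and so 0 members, in these last 2 comparisons, with 7 and 12 members at an unadjusted p under 0.05. The difference between the shp300/CBP effect in shHOXB13 cells and that in shCtrl cells, an interaction term, passed upward for 1 member (2.53% of all genes) and downward for 4 (5.59% of all genes), or 2 and 4 with median-of-ratios scaling. CCS1477 against DMSO raised 4 of 29 members (14.9% of all genes) and lowered 6 (5.31% of all genes) in shHOXB13 cells. In shCtrl cells CCS1477 raised 3 (6.58% of all genes) and lowered 1 (5.56% of all genes), or 3 and 2 with that scaling. The corresponding interaction passed upward for 2 (6.71% of all genes) and downward for 2 (2.45% of all genes), or 2 and 4 with that scaling. Shares that differ from the background in this way describe 46 genes chosen with earlier results known and carry no test of the family as a whole.

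**Figure D2:**
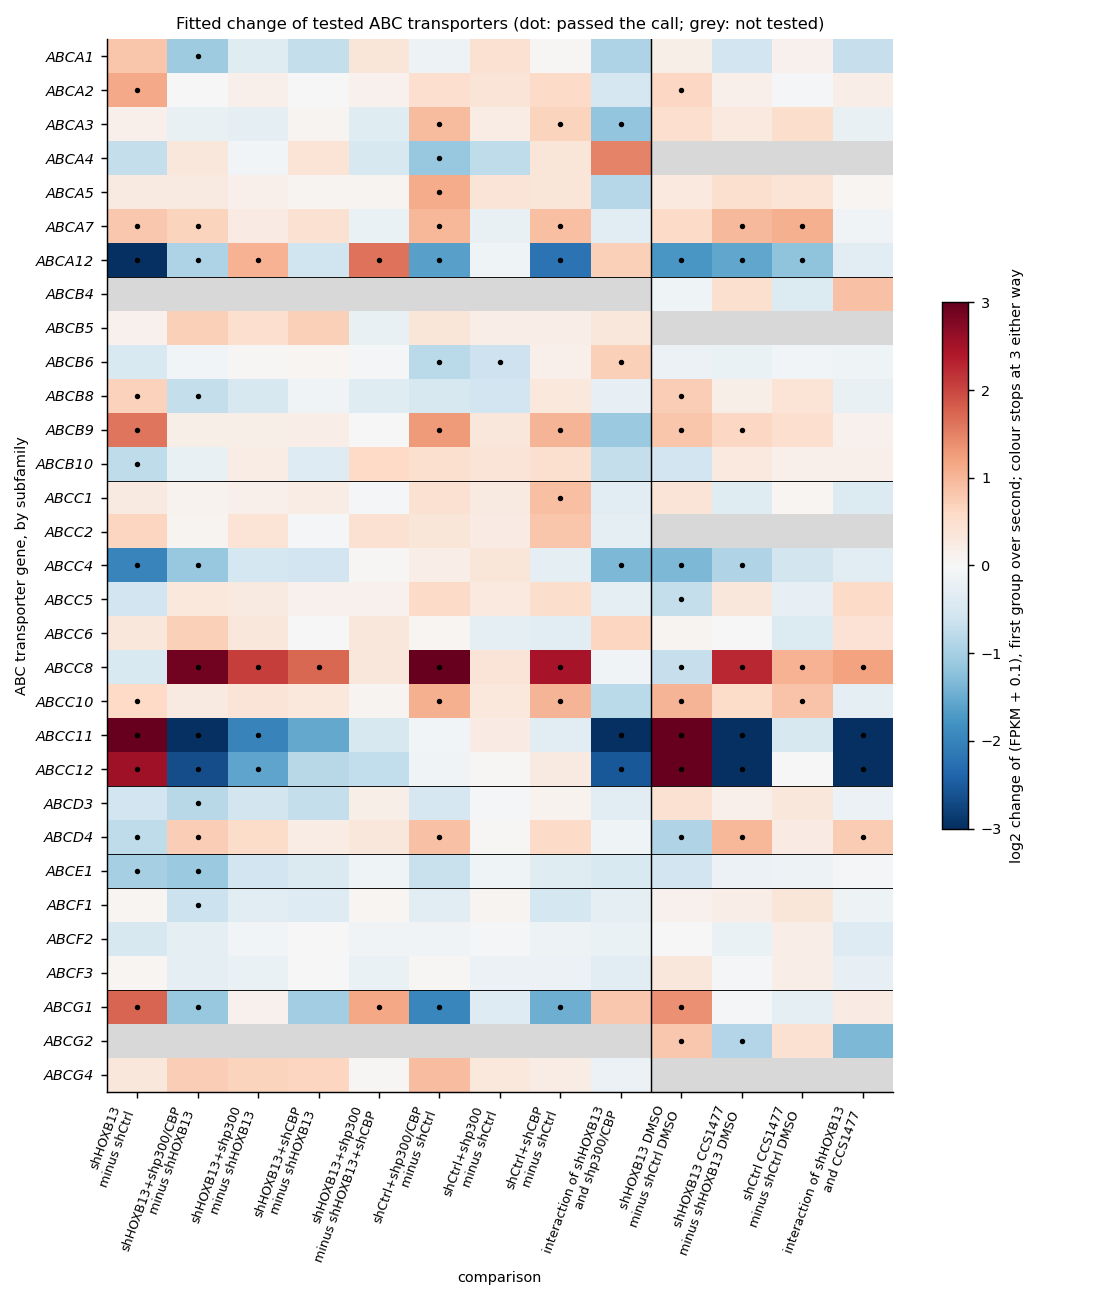
Rows are ABC transporters tested in at least 1 series, by subfamily, columns are the 13 comparisons, colour is the fitted log2 change of (FPKM + 0.1) of the first group over the second, a dot marks a change that passed, and grey marks a gene not tested in that series. *ABCC11* and *ABCC12* share the same columns of deep colour, red with shHOXB13 (log2 3.87 and 2.55 in the knockdown series) and blue when shp300/CBP or CCS1477 is added to it. *ABCC8* is red in most columns where a p300 or CBP hairpin or CCS1477 is added.

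*ABCC11* and *ABCC12*, the tandem pair, rose most of the tested members with shHOXB13 in both series, and in shHOXB13 cells fell most with shp300/CBP, with shp300 and with CCS1477. In shCtrl cells neither passed with any of these. *ABCC11* exports conjugated steroids, bile acids and cyclic nucleotides and is known for a variant that sets earwax type, and the substrates of its close relative *ABCC12* are poorly known. *ABCC11* had 4.95 and 4.11 FPKM in shHOXB13 cells, against 0.221 and 0.209 FPKM in shCtrl cells. Its values were 24.8, 26.8 and 27.5 FPKM in shHOXB13 DMSO cells, against 0.0909, 0.247 and 0.353 FPKM in shCtrl DMSO cells. In both series every shHOXB13 library stood above every shCtrl library, by log2 3.87 (SE 0.39, limma adjusted p = 1.9e-05) and log2 6.41 (SE 0.32, limma adjusted p = 1.8e-08). The level in shHOXB13 DMSO cells exceeded that in the shHOXB13 cells of the knockdown series, which are separate libraries that were not compared by a test.

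With both acetyltransferase hairpins *ABCC11* had 0.434 and 0.274 FPKM in shHOXB13+shp300/CBP cells, against 4.95 and 4.11 FPKM in shHOXB13 cells (log2 −3.37 ± 0.39, limma adjusted p = 0.00015). shHOXB13+shp300 cells held 1.17 and 0.923 FPKM (log2 −2.01 ± 0.39, limma adjusted p = 0.01). That call did not hold without either shHOXB13 library or without shHOXB13+shp300 replicate 2, where the log2 change was −2.15 to −1.86 and limma adjusted p 0.055 to 0.09. shHOXB13+shCBP cells held 1.83 and 1.2 FPKM, and that difference did not pass (log2 −1.54 ± 0.39, limma adjusted p = 0.066; it passed with a pseudocount of 1 FPKM and in limma-voom), nor did the difference between the shp300 and shCBP arms (log2 −0.47 ± 0.39, limma adjusted p = 0.58). In shCtrl cells the 3 second-hairpin groups averaged 0.207, 0.273 and 0.166 FPKM with shp300/CBP, shp300 and shCBP, against 0.215 FPKM in shCtrl, and none of these differences passed (limma adjusted p 0.62 to 0.93). The effect of shp300/CBP differed between shHOXB13 and shCtrl cells by log2 −3.28 (SE 0.54, limma adjusted p = 0.0054). At 0.215 FPKM in shCtrl, *ABCC11* had little room to fall, so an equally large effect could not have been seen in control cells.

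CCS1477 also lowered *ABCC11* in shHOXB13 cells. Its values were 0.325, 0.348 and 0.456 FPKM in shHOXB13 CCS1477 cells, against 24.8 to 27.5 FPKM in shHOXB13 DMSO cells, a 56-fold fall on the fitted scale (log2 −5.81 ± 0.32, limma adjusted p = 2.4e-07). shCtrl CCS1477 cells held 0.0514, 0.204 and 0.146 FPKM, a range that overlaps that of shCtrl DMSO cells (log2 −0.47 ± 0.32, limma adjusted p = 0.32), on 3 to 14 reads a library. The difference between these effects was log2 −5.34 (SE 0.45, limma adjusted p = 4.5e-05). Here too the low level in shCtrl DMSO cells left little room to fall, so an equally large effect could not have been seen in control cells.

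*ABCC12* followed from a lower level. Its values were 0.619 and 0.447 FPKM in shHOXB13 cells, 40 and 22 reads, against 0.014 and 0 FPKM in shCtrl cells, 1 and 0 reads. The ratio of these reads per mapped read was 77.2 (95% counting interval 13.3 to 3100), where the fitted change was log2 2.55 (SE 0.34, limma adjusted p = 0.00015) and is held down by the pseudocount. shHOXB13 DMSO cells held 2.94, 3.35 and 3.06 FPKM on 534 reads in all, against 0 reads in the 3 shCtrl DMSO libraries. Against a floor of 3 reads over that group, equal to 0.0222 FPKM, *ABCC12* was at least 140-fold higher (fitted log2 5.01, limma adjusted p = 7.6e-09). shHOXB13+shp300/CBP cells held 0 reads, at least 18.7-fold lower than the 62 reads of shHOXB13 cells by a floor of 3 reads over its group (fitted log2 −2.65, limma adjusted p = 0.0003). shHOXB13 CCS1477 cells held 0.0134, 0 and 0.0167 FPKM, 2 reads in all, 323-fold fewer per mapped read than shHOXB13 DMSO cells (95% counting interval 88.9 to 2670, limma adjusted p = 7.2e-08). These intervals and floors cover counting error only.

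Between those extremes *ABCC12* held 0.166 and 0.0642 FPKM in shHOXB13+shp300 cells and 0.233 and 0.267 FPKM in shHOXB13+shCBP cells. The first difference from shHOXB13 cells passed (log2 −1.59 ± 0.34, limma adjusted p = 0.018), though not with a pseudocount of 1 FPKM nor without either shHOXB13 library or shHOXB13+shp300 replicate 2 (log2 −1.78 to −1.24, limma adjusted p 0.06 to 0.14). The second did not pass (log2 −0.84, limma adjusted p = 0.19). Both interactions passed, at log2 −2.55 (limma adjusted p = 0.0095) with shp300/CBP and log2 −4.87 (limma adjusted p = 4.5e-06) with CCS1477, and their size depends on the pseudocount because the libraries with shCtrl in these comparisons held 0 or 1 read each.

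The genes around the pair did not share this pattern in full. The reads were counted without regard to strand, and the annotated exons of *ABCC11* share bases with *LONP2*, a peroxisomal protease gene read in the opposite direction, so reads there cannot be told apart. *LONP2* averaged 21.5 ± 0.686 FPKM in shHOXB13 cells and 19.5 ± 1.21 FPKM in shCtrl cells (SD, n = 2 each; log2 0.14, limma adjusted p = 0.35). With DMSO it averaged 50.2 ± 2.79 FPKM in shHOXB13 cells and 24.8 ± 1.21 FPKM in shCtrl cells (SD, n = 3 each; log2 1.02, limma adjusted p = 1.4e-07), and the interaction with CCS1477 passed downward (log2 −0.71, limma adjusted p = 0.00082). *LONP2* also fell in shHOXB13 cells with shp300/CBP (log2 −0.76) and shp300 (log2 −0.59), and its interaction with shp300/CBP passed (log2 −0.60, limma adjusted p = 0.04). The part of *LONP2* reads in the *ABCC11* values was not tested. *ABCC12* shares no exonic bases with another listed gene and rose and fell with *ABCC11*. *SIAH1* and *N4BP1*, the next genes on that side within 300000 bases, fell with shHOXB13 in both series (log2 −1.04 and −0.89 in the knockdown series, −0.83 and −0.73 with DMSO).

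**Figure D3:**
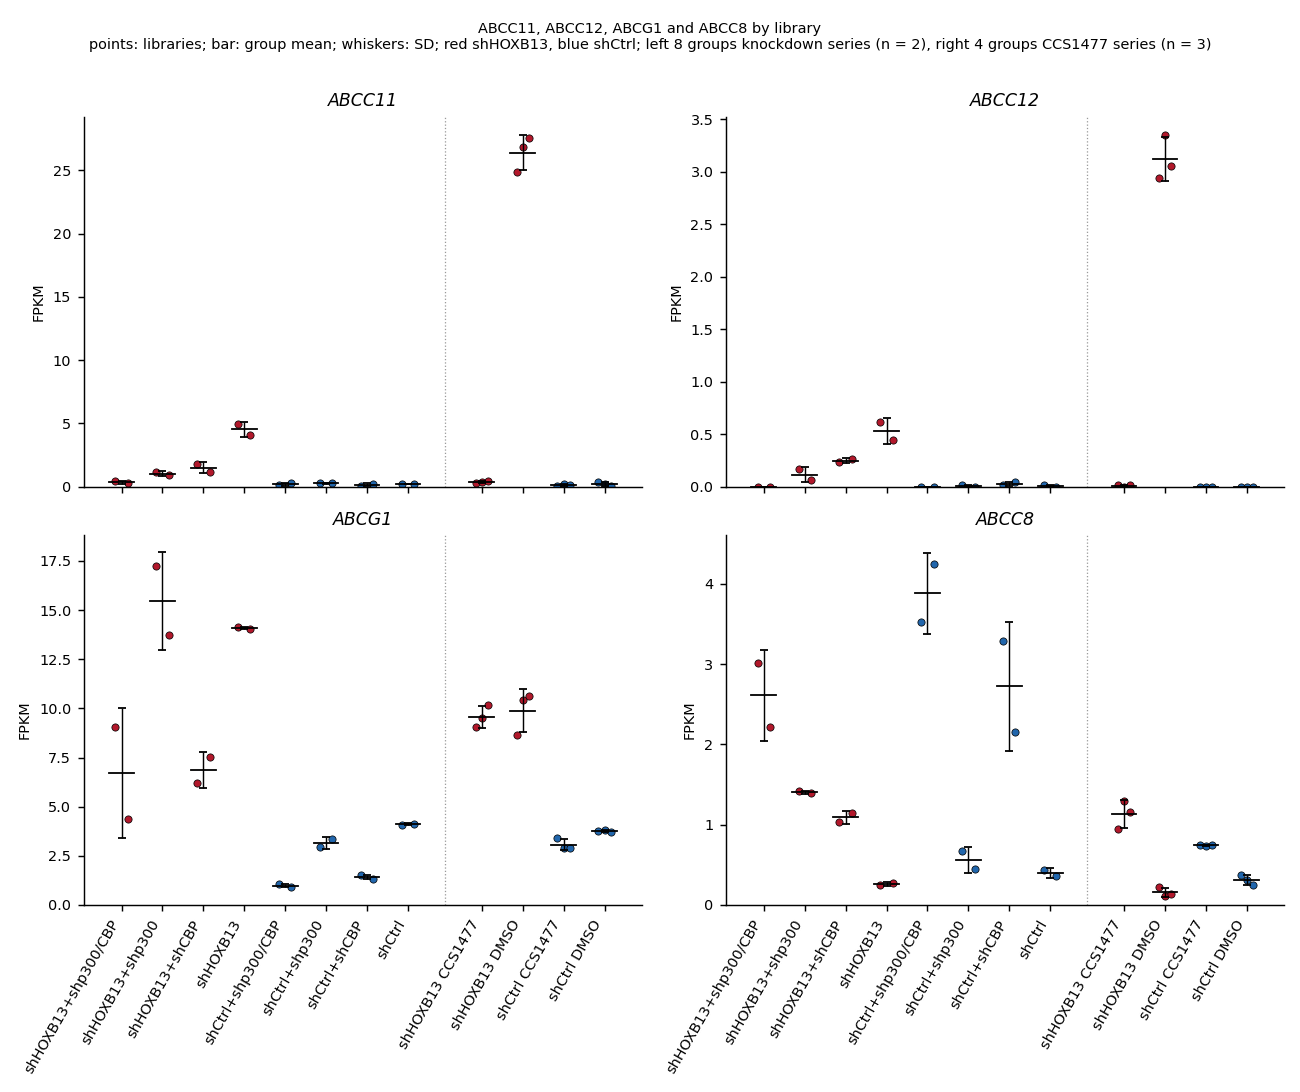
Each point is 1 library's FPKM of *ABCC11*, *ABCC12*, *ABCG1* or *ABCC8* in the 12 groups, red for shHOXB13 and blue for shCtrl, with the group mean as a bar and the SD as whiskers; the 8 groups on the left have 2 libraries and the 4 on the right 3. *ABCC11* and *ABCC12* stand highest in shHOXB13 and shHOXB13 DMSO cells, and *ABCG1* averages 9.58 FPKM with CCS1477 and 9.88 FPKM with DMSO in shHOXB13 cells. *ABCC8* is lowest in the groups given neither a p300 or CBP hairpin nor CCS1477.

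*ABCC4*, the abundant pump for cyclic nucleotides, prostaglandins and conjugated steroids, fell with shHOXB13 and, within shHOXB13 cells, fell further with shp300/CBP and with CCS1477. It had 16.2 and 14.3 FPKM in shHOXB13 cells, against 60.3 and 61.6 FPKM in shCtrl cells (log2 −1.99 ± 0.18, limma adjusted p = 9.9e-06). With DMSO its values were 44.5, 47.9 and 49.5 FPKM in shHOXB13 cells, against 116, 124 and 123 FPKM in shCtrl cells (log2 −1.36 ± 0.09, limma adjusted p = 1.7e-07). The groups did not overlap in either series. shHOXB13+shp300/CBP cells held 6.53 and 7.16 FPKM (log2 −1.15 against shHOXB13, SE 0.18, limma adjusted p = 0.001), while shCtrl+shp300/CBP cells held 76.8 and 63 FPKM, above both shCtrl libraries. Neither hairpin alone passed in shHOXB13 cells, at log2 −0.53 with shp300 and log2 −0.57 with shCBP (limma adjusted p = 0.11 each). The interaction passed (log2 −1.34 ± 0.26, limma adjusted p = 0.01), but not without shCtrl+shp300/CBP replicate 1 or shHOXB13 replicate 1 (log2 −1.19 and −1.25, limma adjusted p 0.053 and 0.051). CCS1477 lowered *ABCC4* in shHOXB13 cells to 24.6, 24.8 and 26.2 FPKM (log2 −0.91 ± 0.09, limma adjusted p = 1.6e-05). In shCtrl cells it had 71, 84.7 and 92.8 FPKM with CCS1477, below all 3 DMSO libraries but under the fold threshold (log2 −0.56), and the difference between these effects did not pass (log2 −0.35, limma adjusted p = 0.095).

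*ABCC8*, the sulfonylurea receptor of the potassium channel that gates insulin release, rose with each p300 or CBP hairpin and with CCS1477, except for shp300 in shCtrl cells. It did not rise with shHOXB13 itself, where *EP300* RNA was also lower, and a link between these was not tested. It had 3.01 and 2.21 FPKM in shHOXB13+shp300/CBP cells (log2 2.90 ± 0.27, limma adjusted p = 4.3e-05), 1.42 and 1.39 FPKM in shHOXB13+shp300 cells (log2 2.06, limma adjusted p = 0.0011) and 1.03 and 1.15 FPKM in shHOXB13+shCBP cells (log2 1.72, limma adjusted p = 0.02), all above the 0.243 and 0.277 FPKM of shHOXB13 cells. The shCBP call was lost with a pseudocount of 1 FPKM and without either shHOXB13 library or shHOXB13+shCBP replicate 1 (log2 1.66 to 1.79, limma adjusted p 0.097 to 0.18). In control cells it had 3.52 and 4.24 FPKM with shp300/CBP and 3.29 and 2.15 FPKM with shCBP, against 0.441 and 0.358 FPKM in shCtrl (log2 2.99 and 2.47, limma adjusted p = 6.3e-05 and 0.00051). With shp300 alone the shCtrl cells held 0.677 and 0.442 FPKM, which did not pass. CCS1477 raised it to 0.943, 1.3 and 1.15 FPKM in shHOXB13 cells, against 0.223, 0.114 and 0.14 FPKM with DMSO (log2 2.26 ± 0.22, limma adjusted p = 1.5e-05), and to 0.752, 0.739 and 0.744 FPKM in shCtrl cells, against 0.377, 0.314 and 0.249 FPKM with DMSO (log2 1.04, limma adjusted p = 0.0052, lost with a pseudocount of 1 FPKM).

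That rise of *ABCC8* was larger in shHOXB13 than in shCtrl cells by log2 1.22 (SE 0.31, limma adjusted p = 0.026), a call lost with a pseudocount of 1 FPKM and without 5 of the 12 libraries, shCtrl DMSO replicate 2, shHOXB13 DMSO replicates 2 and 3 and shHOXB13 CCS1477 replicates 2 and 3 (log2 1.09 to 1.21, limma adjusted p 0.052 to 0.072). With DMSO, *ABCC8* was lower in shHOXB13 cells (log2 −0.68, limma adjusted p = 0.02), on 6 to 15 reads a library, and this was lost with a pseudocount of 1 FPKM, with median-of-ratios scaling and without shCtrl DMSO replicate 1, shHOXB13 DMSO replicate 2 or replicate 3 (log2 −0.64 to −0.56). *KCNJ11*, the pore subunit that pairs with it, averaged 2.33 ± 0.0902 FPKM in shHOXB13+shp300/CBP cells and 2.33 ± 0.249 FPKM in shHOXB13 cells (SD, n = 2 each).

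Among the remaining subfamily C pumps, *ABCC10*, a drug and conjugate pump, rose with shHOXB13 in both series. It had 5.45, 6.31 and 6.63 FPKM in shHOXB13 DMSO cells, against 2.54, 3.05 and 3.39 FPKM in shCtrl DMSO cells (log2 1.02, limma adjusted p = 1.4e-05), and 5.88 and 6.13 FPKM in shHOXB13 cells, against 3.76 and 4.09 FPKM in shCtrl cells (log2 0.60, limma adjusted p = 0.014). The change in the knockdown series lies at the fold threshold and was lost with a pseudocount of 1 FPKM and without shCtrl replicate 1 or either shHOXB13 library (log2 0.54 to 0.63). It rose too in control cells, to 7.91 and 8.8 FPKM with shp300/CBP (log2 1.07), to 9.12 and 7.06 FPKM with shCBP (log2 1.01) and to 5.54, 5.23 and 5.57 FPKM with CCS1477 (log2 0.85), with no library in the range of its control group. The shCBP call was lost without shCtrl replicate 1 or shCtrl+shCBP replicate 1 (log2 0.96 and 0.83). Its exons share bases with *DLK2* on the opposite strand. *ABCC1*, the drug pump MRP1, rose only with shCBP in shCtrl cells among the 13 comparisons, to 18.3 and 18.5 FPKM against 9.69 and 9.83 FPKM (log2 0.91, limma adjusted p = 0.0065), a call lost without either replicate 1 (log2 0.92 in both). *ABCC5*, a pump for cyclic nucleotides, was lower in shHOXB13 DMSO cells at 4.84, 5.34 and 5.35 FPKM, against 8.15, 8.61 and 9.1 FPKM in shCtrl DMSO cells (log2 −0.72, limma adjusted p = 3.6e-05), which was lost with median-of-ratios scaling. *ABCC2*, with group means of 0.00675 to 0.142 FPKM, and *ABCC6*, with 0.177 to 0.594 FPKM and near-identical pseudogene copies, passed in none of their comparisons.

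*ABCA12*, the lipid transporter that fills the lamellar granules of skin, fell with shHOXB13 more than any other tested member in both series. It had 2.64 and 2.85 FPKM in shHOXB13 cells, against 26 and 23.4 FPKM in shCtrl cells (log2 −3.12 ± 0.19, limma adjusted p = 4.8e-07). In the CCS1477 series it had 2.61, 2.85 and 3.79 FPKM in shHOXB13 DMSO cells, against 9.42, 11.4 and 10.5 FPKM in shCtrl DMSO cells (log2 −1.74 ± 0.18, limma adjusted p = 5.4e-06). CCS1477 lowered it in shHOXB13 cells to 1.05, 0.766 and 1.15 FPKM (log2 −1.55, limma adjusted p = 4.3e-05) and in shCtrl cells to 3.91, 4.36 and 5.14 FPKM (log2 −1.21, limma adjusted p = 0.0005). The 4 groups of that series did not overlap, and the highest shHOXB13 DMSO library, at 3.79 FPKM, lay just under the lowest shCtrl CCS1477 library, at 3.91 FPKM.

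The acetyltransferase hairpins differed in *ABCA12*. In shCtrl cells shCBP lowered it to 5.17 and 5.32 FPKM (log2 −2.21 ± 0.19, limma adjusted p = 0.00012) and shp300/CBP to 9.13 and 6.83 FPKM (log2 −1.63, limma adjusted p = 0.00024), while shCtrl+shp300 cells held 26.6 and 18.9 FPKM. In shHOXB13 cells shp300 was followed by higher values, 6.3 and 5.2 FPKM (log2 1.03 ± 0.19, limma adjusted p = 0.008), and shp300/CBP by lower ones, 1.49 and 1.32 FPKM (log2 −0.92, limma adjusted p = 0.0044). The shp300 call was lost without replicate 1 of either group (log2 0.90 and 0.98). Set against each other, shHOXB13+shp300 cells exceeded shHOXB13+shCBP cells, at 1.64 and 1.9 FPKM, by log2 1.64 (SE 0.19, limma adjusted p = 0.0012).

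**Figure D4:**
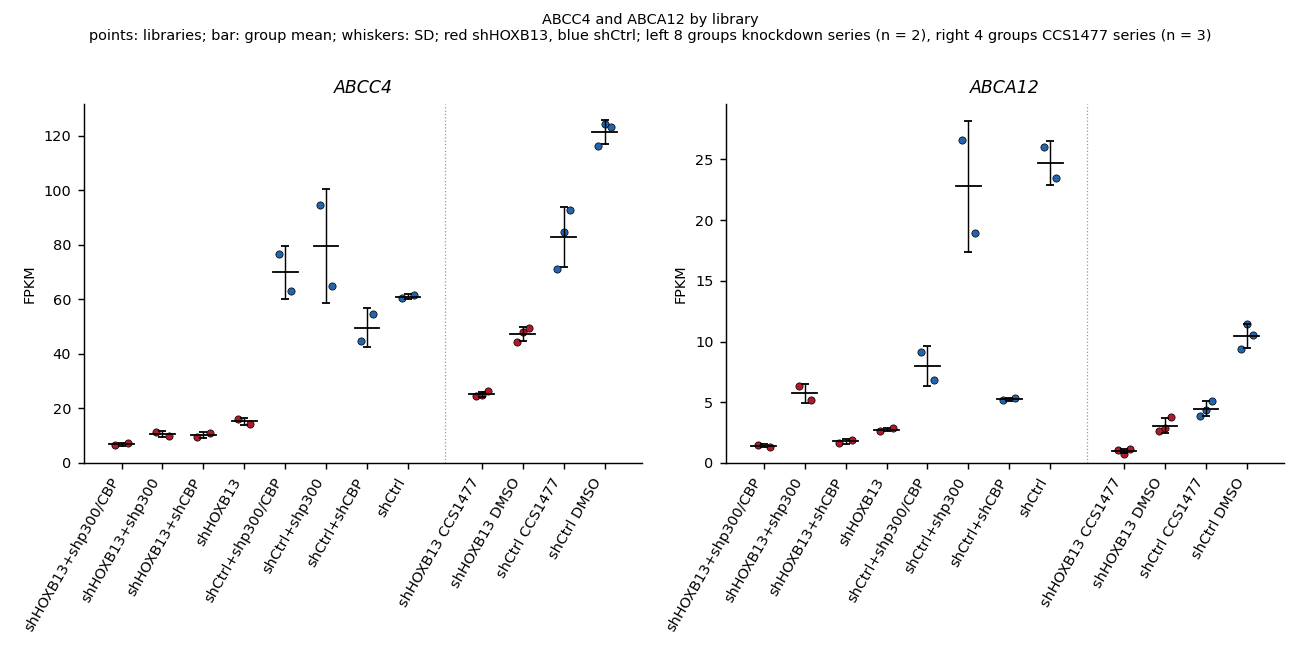
Each point is 1 library's FPKM of *ABCC4* or *ABCA12* in the 12 groups, red for shHOXB13 and blue for shCtrl, with the group mean as a bar and the SD as whiskers. Red points lie below the blue points of the same second treatment in both genes and both series, and in *ABCA12* the groups with shCBP (5.25 ± 0.102 FPKM in shCtrl cells) lie far below those with shp300 alone (22.8 ± 5.42 FPKM).

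Among other members of subfamily A, *ABCA2* and *ABCA7* rose with shHOXB13 in the knockdown series. *ABCA2* had 79.2 and 81.3 FPKM in shHOXB13 cells, against 34.1 and 38.4 FPKM in shCtrl cells (log2 1.15 ± 0.11, limma adjusted p = 1.2e-05), and 68.2 to 74.2 FPKM in shHOXB13 DMSO cells, against 44.9 to 49.3 FPKM in shCtrl DMSO cells (log2 0.62, limma adjusted p = 2.5e-05). *ABCA7*, a phospholipid transporter of phagocytic and nerve cells, rose in 6 comparisons. Its values were 21.4 and 22.8 FPKM in shHOXB13 cells, against 12 and 13.1 FPKM in shCtrl cells (log2 0.81, limma adjusted p = 0.00092). They were higher again in shHOXB13+shp300/CBP cells, at 33.5 and 37.2 FPKM (log2 0.67), and in shHOXB13 CCS1477 cells, at 33.5, 36.2 and 35.9 FPKM, against 16.5, 19.4 and 17.9 FPKM with DMSO (log2 0.97, limma adjusted p = 1.3e-05). In shCtrl cells *ABCA7* rose to 23.7 and 26.5 FPKM with shp300/CBP (log2 0.99) and to 27.5 and 20.2 FPKM with shCBP (log2 0.90). With CCS1477 it had 28.7, 22.9 and 24.6 FPKM in shCtrl cells, against 12.9, 11.3 and 11.8 FPKM with DMSO (log2 1.07). None of these groups overlapped its control.

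*ABCA3*, the surfactant lipid transporter, rose in shCtrl cells with shp300/CBP to 26.3 and 29.1 FPKM, against 13.8 and 14.6 FPKM (log2 0.96, limma adjusted p = 0.0013), but held 11.5 and 16.1 FPKM in shHOXB13+shp300/CBP cells, against 15.2 and 16.5 FPKM in shHOXB13 cells. The difference between these effects passed (log2 −1.17 ± 0.21, limma adjusted p = 0.0077). With shCBP in shCtrl cells it rose to 21.8 and 23.1 FPKM (log2 0.66), a call lost when any of the 4 libraries was left out (log2 0.62 to 0.70). *ABCA5*, a lysosomal lipid transporter, rose with shp300/CBP in shCtrl cells to 4.88 and 5.75 FPKM, against 2.2 and 2.61 FPKM (log2 1.11, limma adjusted p = 0.0012). It shares exonic bases on the same strand with *ABCA10*. *ABCA1*, the cholesterol exporter, stayed under 0.26 FPKM in every library and fell with shp300/CBP in shHOXB13 cells (0.0731 and 0.0233 FPKM, against 0.17 and 0.251 FPKM; log2 −1.08, limma adjusted p = 0.024), which was lost with a pseudocount of 1 FPKM and without shHOXB13 replicate 1 or shHOXB13+shp300/CBP replicate 2 (log2 −0.89 and −0.83). *ABCA4*, the retinal transporter, at under 0.43 FPKM, fell with shp300/CBP in shCtrl cells (log2 −1.15, limma adjusted p = 0.043), and this was lost with a pseudocount of 1 FPKM, with median-of-ratios scaling and when any of the 4 libraries was left out (log2 −1.36 to −0.93).

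*ABCG1*, which moves cholesterol to lipoproteins and is induced by the oxysterol receptor LXR, rose with shHOXB13 and fell with shp300/CBP, while its difference with CCS1477 did not pass. It had 14.1 and 14.1 FPKM in shHOXB13 cells, against 4.08 and 4.14 FPKM in shCtrl cells (log2 1.75 ± 0.26, limma adjusted p = 0.00032). With DMSO it had 8.62, 10.4 and 10.6 FPKM in shHOXB13 cells, against 3.77, 3.83 and 3.71 FPKM in shCtrl cells (log2 1.36 ± 0.10, limma adjusted p = 4.9e-07). shHOXB13 CCS1477 cells held 9.07, 9.49 and 10.2 FPKM, within the range of the DMSO libraries (log2 −0.04 ± 0.10, limma adjusted p = 0.79). shHOXB13+shp300/CBP cells held 9.06 and 4.38 FPKM, whose spread is the widest of any group for this gene, and passed (log2 −1.15 ± 0.26, limma adjusted p = 0.0076). shHOXB13+shp300 cells held 17.2 and 13.7 FPKM, a range around that of shHOXB13 (log2 0.12, limma adjusted p = 0.84), and shHOXB13+shCBP cells 6.21 and 7.53 FPKM, below it without passing (log2 −1.03, limma adjusted p = 0.067; it passed with a filter of 1 FPKM and in limma-voom). The shp300 arm exceeded the shCBP arm by log2 1.16 (limma adjusted p = 0.041), a call lost with no filter and when any of the 4 libraries was left out (log2 0.99 to 1.32, limma adjusted p 0.072 to 0.23).

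In shCtrl cells *ABCG1* fell to 1.04 and 0.934 FPKM with shp300/CBP (log2 −1.95 ± 0.26, limma adjusted p = 0.00057) and to 1.51 and 1.35 FPKM with shCBP (log2 −1.46, limma adjusted p = 0.0061), the second lost without shCtrl replicate 1 (log2 −1.47, limma adjusted p = 0.055). With shp300 it held 2.93 and 3.35 FPKM, which did not pass (log2 −0.38, limma adjusted p = 0.55). The shp300/CBP effect was not shown to differ between shHOXB13 and shCtrl cells (log2 0.80 ± 0.37, limma adjusted p = 0.22), although it passed without shHOXB13+shp300/CBP replicate 2 (log2 1.32, limma adjusted p = 0.0057). *ABCG2*, with at most 8 reads in a library, passed upward in shHOXB13 DMSO cells (0.109, 0.116 and 0.157 FPKM, against 0, 0.026 and 0.0703 FPKM; log2 0.81, limma adjusted p = 0.036) and downward with CCS1477 (log2 −0.88, limma adjusted p = 0.036). Both were lost with a pseudocount of 1 FPKM and in 5 of 6 fits without a library, for the rise all but shCtrl DMSO replicate 3 (log2 0.63 to 0.87) and for the fall all but shHOXB13 CCS1477 replicate 2 (log2 −0.93 to −0.73). *ABCG4*, a brain sterol transporter, had group means of 0 to 0.112 FPKM and passed in none of its comparisons.

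The mitochondrial and lysosomal members of subfamily B gave smaller changes. *ABCB9*, a lysosomal peptide transporter, had 6.56 and 8.16 FPKM in shHOXB13 cells, against 2.33 and 2.37 FPKM in shCtrl cells (log2 1.6 ± 0.23, limma adjusted p = 0.00022), and 5.42 to 7.21 FPKM in shHOXB13 DMSO cells, against 3.37 to 3.73 FPKM in shCtrl DMSO cells (log2 0.84, limma adjusted p = 0.00011). It rose again in shCtrl cells with shp300/CBP, to 5.4 and 6.36 FPKM (log2 1.28), and shCBP, to 5.2 and 4.59 FPKM (log2 1.02), and in shHOXB13 cells with CCS1477 (log2 0.61). The shCBP call was lost without either shCtrl library or shCtrl+shCBP replicate 1 (log2 0.94 to 1.03), and the CCS1477 call with a pseudocount of 1 FPKM, with median-of-ratios scaling and without shHOXB13 DMSO replicate 1 or shHOXB13 CCS1477 replicate 3 (log2 0.51 and 0.56). *ABCB9* shares exonic bases with *OGFOD2* and *ARL6IP4* on the opposite strand. *ABCB8*, a transporter of the mitochondrial inner membrane, had 16.7 and 17.4 FPKM in shHOXB13 cells, against 9.07 and 12.2 FPKM in shCtrl cells (log2 0.69, limma adjusted p = 0.0039), lost without shCtrl replicate 1 (log2 0.48). It was higher in shHOXB13 DMSO cells too (log2 0.74, limma adjusted p = 1.8e-05), and fell with shp300/CBP in shHOXB13 cells to 10.2 and 10.6 FPKM (log2 −0.71, limma adjusted p = 0.0055), which was lost with median-of-ratios scaling.

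*ABCB6*, a porphyrin transporter, fell in shCtrl cells with shp300/CBP to 14.2 and 14.9 FPKM, against 23.9 and 27.2 FPKM (log2 −0.80, limma adjusted p = 0.0016), and with shp300 to 16.5 and 16.7 FPKM (log2 −0.62, limma adjusted p = 0.025). The shp300 call was lost when any of the 4 libraries was left out (log2 −0.71 to −0.52) and with median-of-ratios scaling. In shHOXB13 cells its values were 16.2 and 19.2 FPKM with shp300/CBP and 18.5 and 18.7 FPKM without. The interaction passed (log2 0.72, limma adjusted p = 0.033) but was lost without any 1 of 7 of the 8 libraries, all but shHOXB13+shp300/CBP replicate 2 (log2 0.60 to 0.82). *ABCB10*, a mitochondrial transporter of heme synthesis, was lower in shHOXB13 cells at 3.68 and 3.71 FPKM, against 6.06 and 6.7 FPKM in shCtrl cells (log2 −0.77, limma adjusted p = 0.02), a call lost without any of the 4 libraries (log2 −0.84 to −0.70) and with median-of-ratios scaling. *ABCB4* and *ABCB5* passed in none, with group means of 0.0154 to 0.208 and 0.00606 to 0.151 FPKM.

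In subfamily D, *ABCD4* fell with shHOXB13 in both series. *ABCD4*, which passes vitamin B12 out of lysosomes, had 4.76 and 5.52 FPKM in shHOXB13 cells, against 8.07 and 9.42 FPKM in shCtrl cells (log2 −0.76, limma adjusted p = 0.0042), which was lost with median-of-ratios scaling, and 4.82, 5.01 and 4.13 FPKM in shHOXB13 DMSO cells, against 8.5, 9.19 and 8.62 FPKM in shCtrl DMSO cells (log2 −0.90, limma adjusted p = 5.1e-06).

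*ABCD4* rose with CCS1477 in shHOXB13 cells to 9.24, 9.38 and 9.48 FPKM (log2 1.00 ± 0.09, limma adjusted p = 8.5e-06), and by more than in shCtrl cells (interaction log2 0.75 ± 0.13, limma adjusted p = 0.0035). It rose with shp300/CBP in shHOXB13 cells, to 9.99 and 7.51 FPKM (log2 0.75, limma adjusted p = 0.0075), lost without shHOXB13 replicate 2 or shHOXB13+shp300/CBP replicate 1 (log2 0.64 and 0.54), and in shCtrl cells (log2 0.88, limma adjusted p = 0.0045). *ABCD3*, a peroxisomal membrane protein that imports branched-chain and bile acid intermediates, fell with shp300/CBP in shHOXB13 cells to 8.51 and 10.2 FPKM, against 16.4 and 16.8 FPKM (log2 −0.82, limma adjusted p = 0.0047).

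Of the ribosome-acting members, *ABCE1* moved most. *ABCE1*, which splits ribosomes after termination, had 10.6 and 11.9 FPKM in shHOXB13 cells, against 19.8 and 26 FPKM in shCtrl cells (log2 −1.01 ± 0.22, limma adjusted p = 0.0032), and 3.98 and 6.53 FPKM in shHOXB13+shp300/CBP cells (log2 −1.12 against shHOXB13, limma adjusted p = 0.0031). With DMSO its values were 13.5 to 17.1 FPKM in shHOXB13 cells and 22.7 to 24.7 FPKM in shCtrl cells, below the fold threshold (log2 −0.57). *ABCE1* shares exonic bases with *ANAPC10* and *OTUD4* on the opposite strand. *ABCF1*, an initiation factor partner, fell with shp300/CBP in shHOXB13 cells to 2.01 and 2.25 FPKM, against 3.28 and 3.51 FPKM (log2 −0.65, limma adjusted p = 0.015), lost with a pseudocount of 1 FPKM, with median-of-ratios scaling and without either shHOXB13 library or shHOXB13+shp300/CBP replicate 2 (log2 −0.70 to −0.57). *ABCF2* and *ABCF3*, with group means of 7.8 to 15.2 and 22.4 to 33.2 FPKM, passed in none of the 13 comparisons.

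Genes that work with the family were taken as 7 lists. Conjugating enzymes, which make conjugates that subfamily C pumps carry out, moved most. Their list also held *STS*, which removes sulfate from steroids. *STS* is counted among the genes that rose with DMSO and that shp300/CBP lowered in shHOXB13 cells. In shHOXB13 against shCtrl cells 9 of 12 tested rose and 1 fell (median log2 3.08), where 7.15% of all genes rose and 26.8% fell (median log2 −0.33). With DMSO 10 of 12 rose and 1 fell (median log2 3.11), where 8.58% of all genes rose and 30.6% fell (median log2 −0.33). *UGT2B28* averaged 71.8 ± 9.22 FPKM in shHOXB13 cells and 0.637 ± 0.175 FPKM in shCtrl cells, and *UGT2B11* 314 ± 23.8 FPKM in shHOXB13 cells and 5.15 ± 0.021 FPKM in shCtrl cells (SD, n = 2 each). The UGT2B family includes enzymes that glucuronidate androgens, and its members are so alike that reads can be split between them. CCS1477 in shHOXB13 cells lowered 8 of 12 (5.31% of all genes) and raised 1 (14.9% of all genes), *UGT2B28* to 14.4 ± 1.16 FPKM, against 58.8 ± 3.28 FPKM with DMSO (SD, n = 3 each; log2 −2.02, limma adjusted p = 2e-07). shp300/CBP in shHOXB13 cells lowered 7 of 12 (13.3% of all genes), among them *UGT1A1*, the bilirubin enzyme, at 0.383 ± 0.175 FPKM, against 9.01 ± 0.998 FPKM in shHOXB13 cells (SD, n = 2 each; log2 −4.28, limma adjusted p = 1.3e-05). In shCtrl cells shp300/CBP raised 6 (7.60% of all genes) and lowered 2 (7.89% of all genes) of the 12.

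The lipid lists were mixed. Of 14 tested genes of the LXR pathway outside the family, 3 rose (*SCD*, *SREBF1* and *LPCAT3*) and 4 fell with shHOXB13 (median log2 −0.12), where 7.15% of all genes rose and 26.8% fell. *SCD*, the stearoyl-CoA desaturase, rose by log2 3.87 (limma adjusted p = 1.4e-07), and *NR1H3*, which encodes LXR alpha, fell by 1.21 on the log2 scale. Of 17 cholesterol uptake and movement genes 4 rose and 5 fell (median log2 0.24, against −0.33 for all genes). In both lists the share that fell was close to that of all genes. *NPC1*, the lysosomal cholesterol exporter, averaged 148 ± 7.87 FPKM in shHOXB13 cells and 22.4 ± 0.941 FPKM in shCtrl cells (SD, n = 2 each). With DMSO the counts were 3 up and 4 down of 15 LXR genes and 3 up and 4 down of 17 cholesterol genes, where 8.58% of all genes rose and 30.6% fell. CCS1477 in shHOXB13 cells raised 3 (14.9% of all genes) and lowered 2 (5.31% of all genes) of the cholesterol genes.

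The other 4 lists cover peroxisomes, ribosomes, organic anion uptake and partners under other names. Of 12 peroxisomal partner genes 1 rose and 4 fell with shHOXB13, where 7.15% of all genes rose and 26.8% fell. Their median log2 change was −0.23, near the −0.33 of all genes. With DMSO 4 rose and 2 fell, where 8.58% of all genes rose and 30.6% fell (median log2 0.08, against −0.33 for all genes). *HSD17B4*, a peroxisomal beta-oxidation enzyme, fell in both (log2 −1.51 and −0.68). shp300/CBP in shHOXB13 cells lowered 5 of the 12 (13.3% of all genes). Of 12 ribosome recycling and sensing genes 8 fell with shHOXB13 (median log2 −0.67; 26.8% of all genes fell, median log2 −0.33) and 5 with DMSO (median log2 −0.21; 30.6% of all genes fell, median log2 −0.33), *LTN1*, a ligase for stalled ribosomes, showing log2 −2.19 and −1.48. Of 6 tested organic anion uptake transporters *SLCO2A1*, the prostaglandin carrier, fell with shHOXB13 (log2 −2.21), and 3 of 3 tested fell with DMSO (26.8% and 30.6% of all genes). Of 4 tested ABC genes and partner subunits with other names, *TAPBP* and *TAP1*, which load peptides for antigen display, rose with shHOXB13 (7.15% of all genes), *TAPBP* to 9.19 ± 0.627 FPKM, against 3.78 ± 0.778 FPKM in shCtrl cells (SD, n = 2 each; log2 1.27, limma adjusted p = 0.00022). With DMSO *TAPBP* alone of the 4 rose (log2 0.90), as did 8.58% of all genes. Both rose with CCS1477 in shHOXB13 cells (log2 0.88 and 0.78), as did 14.9% of all genes.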

How the data were processed

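PolyA RNA of LNCaP cells was sequenced as paired ends, 2 libraries in each of 8 knockdown groups and 3 in each of 4 CCS1477 or DMSO groups. The authors aligned reads to GRCh38 (STAR 2.6.0 in the submitters' processing notes), counted them per gene without strand and deposited FPKM, scaled to the length of the gene and the total of mapped reads. Their own comparisons used DESeq2 on counts, and FPKM are not counts, so limma 3.58.1 (R 4.3.3, trended empirical Bayes) was run here on log2(FPKM + 0.1). Genes at 0.1 FPKM or more in 2 (knockdown) or 3 (CCS1477) libraries entered 1 fit per series of all its groups, and p-values were adjusted by Benjamini-Hochberg over all genes of a comparison. A gene passed where the adjusted p was below 0.05 and the change at least 1.5-fold. The fit of shHOXB13 against shCtrl in each series was tried on simulated reads. These held known changes in well-covered genes and the same spread for every gene. Interactions, the other comparisons and changes in genes with few reads were not checked this way. The FPKM steps gave whole reads, within 0.05 of a read, for 475332 of 475360 values in 22422 genes (100.0%), and mapped reads of 7458934 to 16338530 a library, so 1 read in a short gene is a coarse step. P-values measure the spread between these biological replicates.

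The members, gene lists and tests were chosen with earlier results of these data known. Named are all members that passed in a comparison, those that passed in none by the range of their group means, and up to 3 genes per list of smallest p. *NR1H3* and *KCNJ11* were named for their role, *HSD17B4* with DMSO as a repeat, and genes of counts of 5 or fewer after their values were seen. A few genes are counted in the totals but are not reported or drawn here. The 32 blank gene rows were left out. Alternatives were a pseudocount of 1 FPKM, no filter, a filter of 1 FPKM, median-of-ratios scaling, the compared groups alone, the replicate number as a block, limma-voom on the recovered reads, and each library left out. Same-numbered libraries deviated together in shCtrl CCS1477 against shCtrl DMSO (correlations 0.325, 0.145 and 0.145) and not elsewhere (−0.068 to 0.025), and the labels give no shared batch. With the block 3 members rose and 1 fell in that comparison, the same counts as without it.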

Additional observations from a re-analysis of the deposited data

Results flagged for a closer look

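The difference between the effect of shp300/CBP in shHOXB13 cells and in shCtrl cells passed the limma interaction test for 5 members. Of these, 1 passed upward (2.53% of all genes) and 4 downward (5.59% of all genes). The difference was log2 −3.28 for *ABCC11*, −2.55 for *ABCC12*, −1.34 for *ABCC4*, −1.17 for *ABCA3* and 0.72 for *ABCB6*. The corresponding difference for CCS1477 passed for 4 members, 2 upward (6.71% of all genes) and 2 downward (2.45% of all genes). It was log2 −5.34 for *ABCC11*, −4.87 for *ABCC12*, 0.75 for *ABCD4* and 1.22 for *ABCC8*. *ABCC11* and *ABCC12* passed both. Some fits with 1 library left out lost the calls of *ABCC4* (log2 −1.25 to −1.19), *ABCB6* (log2 0.60 to 0.82) and *ABCC8* (log2 1.09 to 1.21). The *ABCC8* call was also lost with a pseudocount of 1 FPKM. In the shCtrl libraries of these comparisons *ABCC12* held 0 or 1 read and *ABCC11* stood near the floor. This leaves little room for a lower value of either gene. No explanation of these differences was tested.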

How the results depend on the processing

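Of 92 member changes that passed, 0 reversed, 48 kept their call under all alternatives, 73 under all except the compared groups alone and the left-out libraries, and 66 with each library left out in turn. The filters, the compared groups alone and the replicate block leave the log2 change as it was, so they could not reverse it. The number of members past the threshold was 0 with the compared groups alone for shp300/CBP, shp300 and shCBP in shHOXB13 cells, for shHOXB13+shp300 against shHOXB13+shCBP, and for shp300 and shCBP in shCtrl cells, where the fit had 2 residual degrees of freedom. In these fits 0 of all 17678 genes passed, so the loss is not particular to the members. For shCBP in shHOXB13 cells the number of members was 3 with a filter of 1 FPKM and 4 in limma-voom, against 1. For shHOXB13+shp300 against shHOXB13+shCBP it was 1 with no filter, against 2, for shp300 in shCtrl cells 0 with median-of-ratios scaling, against 1, and for the interaction of shHOXB13 and shp300/CBP 9 in limma-voom, against 5. With 1 library left out, the counts were 12 to 15 for shHOXB13 against shCtrl, 13 to 15 with DMSO, 11 to 12, 1 to 3 and 0 to 2 for shp300/CBP, shp300 and shCBP in shHOXB13 cells, 1 for shHOXB13+shp300 against shHOXB13+shCBP, 10 to 12, 0 and 3 to 9 for the same hairpins in shCtrl cells, 8 to 10 and 4 to 5 for CCS1477 in shHOXB13 and shCtrl cells, and 3 to 9 and 3 to 6 for the interactions. The cause of these shifts was not tested.

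The replicate block lost 3 calls, *ABCA4* with shp300/CBP in shCtrl cells (limma adjusted p = 0.052) and *ABCG2* in both of its comparisons (limma adjusted p = 0.058 and 0.059). Counts with the block were 10 for shp300/CBP in shCtrl cells, 13 for shHOXB13 with DMSO and 9 for CCS1477 in shHOXB13 cells, and were unchanged in the other comparisons. Median-of-ratios scaling moved the split of all called genes to 2429 up and 1703 down for shp300/CBP in shHOXB13 cells, 237 and 202 for shCBP, 1040 and 722 for shCBP in shCtrl cells, and 1502 and 1266 for CCS1477 in shHOXB13 cells. Depth limits members under about 0.1 FPKM, which rest on a few reads.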
